A study of Mus musculus with 18 samples.

Results

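The effect of an shRNA against Nup210 was read in C2C12 myotubes, with 6 arrays labelled Nup210 shRNA set against 6 arrays of a scrambled control shRNA. These 12 arrays were part of a series of 18. The other 6 carried an shRNA against Mef2c and are used below where a test between the 2 shRNAs is needed. Members were chosen by the shRNA named in each sample's label, and the comparison was made over 22180 genes, each represented by 1 probe set, chosen as the brightest on average across the whole series. C2C12 is a mouse myoblast line. Cells were kept in 20% fetal bovine serum, shifted to 2% horse serum to differentiate, infected 36 h later and collected 48 h after infection. All 3 groups shared this scheme, so the controls also carried an infection and a hairpin, and no uninfected culture entered the comparison. The hairpin sequences and the share of infected cells were not given in the labels and are not analysed here.

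Nup210 encodes a membrane-spanning glycoprotein of the nuclear pore, the channel through which proteins and RNA pass between nucleus and cytoplasm. It is known as a nucleoporin that is absent from dividing myoblasts and appears as muscle cells differentiate. Muscle differentiation itself runs through the myogenic factors Myf5, Myod1 and Myog together with MEF2 factors, which switch on sarcomere, calcium-handling and energy genes while cells leave the cell cycle and fuse.

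The values were log2 expression values, on which a difference of 1 is a doubling. Array medians over the genes ran from 5.90 to 6, and the correlation across genes between arrays of 1 group was 0.991 to 0.995. The median standard error (SE) of a difference between 2 groups was 0.0799, and 6 arrays per group limited the precision. The 1392 olfactory and vomeronasal receptor genes, which muscle cells are not known to use, served as a guide to background. Their 95th percentile was 5.47, and 58.6% of genes averaged above it. Myotube markers stood far above it in both groups: the actins Acta1 (12.50 with Nup210 shRNA, 12.55 in controls) and Actc1 (12.80 and 12.84), the acetylcholine receptor subunit Chrna1 (12.64 and 12.66) and the intermediate filament Des (12.42 and 12.41). Not all markers were level. The myosin heavy chain Myh3 averaged 11.86 with Nup210 shRNA and 12.06 in controls, with no overlap (limma adjusted p = 0.00143). Ckm and Myod1, described below, also differed. The labels do not state whether the 6 samples of a group were separate cultures. All p-values therefore describe how much these samples varied, and that variation may be technical.

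Nup210 itself was not lower in the arrays labelled Nup210 shRNA beyond the spread between arrays. It read 5.74, 5.55, 5.54, 5.55, 5.71 and 5.79 in those arrays and 5.80, 5.78, 5.75, 5.81, 5.80 and 5.57 in controls. Both groups lay just above background and overlapped, control array 6 lying between the shRNA arrays. The difference was -0.10 ± 0.064 (SE; limma adjusted p = 0.402; exact permutation p = 0.0801, two-sided, over all 924 splits of 6 against 6, and 0.12 when adjusted over the 3 genes tested so, which were Nup210, Mef2c and Trip6). Trip6, a LIM-domain adaptor protein gene, read 7.65 to 7.80 with Nup210 shRNA and 7.59 to 7.74 in controls, overlapping (0.08 ± 0.039, limma adjusted p = 0.25; exact permutation p = 0.0455, adjusted 0.12). Leaving out control array 6 from the limma fit gave -0.14 (adjusted p = 0.229). Against the Mef2c shRNA arrays, which averaged 5.88 ± 0.12 (SD, n = 6), Nup210 was lower by 0.23 (limma adjusted p = 0.0178). Since the transcript was not shown to be lower than in controls, the arrays are called by their label throughout.

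The shares of nuclear pore and nuclear envelope genes that were called lay near the share of all genes above background. Of all genes above background, 4.64% were called higher and 8.52% lower, together 13.2%. Of 26 measured pore genes, 1 rose and 2 fell (11.5% called), with a median log2 difference of 0.03 beside 0.015 over all genes tested. The rise was Aaas, which encodes the pore protein aladin (0.28 ± 0.071, adjusted p = 0.0177), and its lowest shRNA array lay within the control range. Seh1l (-0.16) and Gle1 (-0.20) were the falls. Seh1l was not called when Nup210 shRNA array 2 (limma adjusted p = 0.0551) or 4 (0.0594) was dropped, nor when control array 1 (0.0545), 3 (0.0586) or 6 (0.0624) was, and Gle1 was called in 4 of the 12 fits that left out 1 array, namely with Nup210 shRNA array 3 or 5, or with control array 4 or 6, dropped. Of 24 nuclear envelope and lamina genes 1 rose and 3 fell (16.7%). Kpna3, which encodes an importin alpha that carries cargo into the nucleus, read 9.81, 9.67, 9.75, 9.67, 9.69 and 9.88 with Nup210 shRNA against 10.42 to 10.57 in controls. The whole group of shRNA arrays lay below the whole group of controls, at 58.7% of the control level (-0.77 ± 0.045, adjusted p = 1.52e-08). The importins Ipo7 (-0.24) and Ipo9 (-0.25) and the exportin Cse1l (-0.23, chosen after its value was seen) also fell with no overlap between groups. They were the 4 falls among 30 karyopherin and RAN genes, of which 16.7% were called in either direction, and the same number fell in each of the 12 fits that left out 1 array. The single rise there, of Tnpo2 (0.19, adjusted p = 0.0331), was called in only 4 of those 12 fits and was gone once Nup210 shRNA array 2, 4 or 5, or any control array but 5, was dropped.

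In the limma fit at an adjusted p under 0.05, 676 genes rose (3.05% of those tested) and 1133 fell (5.11%), together 8.16%. The changes were small. The median size of a called difference was 0.264, 24 rises and 67 falls reached 1.5-fold, and 4 rises and 5 falls reached 2-fold. The calls rested on most arrays: 1787 of the 1809 called genes had every Nup210 shRNA array on the called side of the control mean, and the other 22 had 5. A stricter reading asks that every shRNA array lie beyond every control array. Over all genes tested, 1.92% were separated in this way upward and 3.71% downward. Among called genes, 359 rises (1.62% of genes tested, 53.1% of the rises) and 747 falls (3.37%, 65.9% of the falls) were separated. A further 452 called genes had 5 of 6 arrays beyond every control, 177 had 4, 56 had 3, 14 had 2 and 4 had 1. With 142 genes the groups were apart but the fit did not call them.

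Single arrays differed in how much of the change they carried. When an array was left out of the fit and the genes called without it were then read in it, 95.5% to 98.8% of them lay on the called side of the other group's mean. Their size did differ between arrays. Nup210 shRNA arrays 2, 4 and 5 showed 1.1, 1.1 and 1.2 times the change estimated from the other arrays (median over called genes), while arrays 1, 3 and 6 showed 0.75, 0.7 and 0.71 times. The controls ran from 0.81 to 1. Arrays 2, 4 and 5 also had the lowest weights among the 18 in limma's estimate of array quality, at 0.72, 0.62 and 0.74. What sets these 3 arrays apart was not tested.

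**Figure D1:**
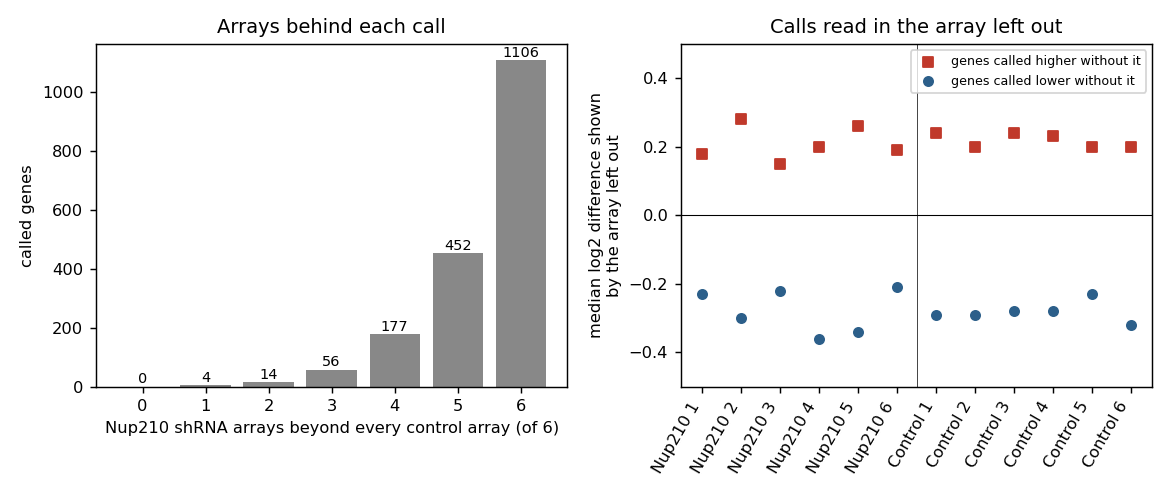
Left, the number of called genes (vertical axis) by how many of the 6 Nup210 shRNA arrays lay beyond every control array (horizontal axis). For 1106 genes all 6 did. Right, for each array left out of the fit, the median log2 difference that this array showed for genes called higher (squares) or lower (circles) without it. All medians lay on the called side of 0, from 0.15 to 0.28 for rises and from -0.21 to -0.36 for falls.

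Of the 1809 calls, 1177 (65.1%) were made in all 12 of the fits that left out 1 array, 377 of them rises and 800 falls, and 944 of these were also separated. A fit without Nup210 shRNA arrays 2, 4 and 5, chosen after seeing the data, called 153 rises and 410 falls, and shared 541 calls with the fit of all arrays. Genes that were separated, kept in all 12 fits and called again without those 3 arrays numbered 487, made up of 106 rises and 381 falls. The genes below are described with this standing: separated or overlapping, and kept or lost.

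The falls with the widest gap between groups were of genes with varied roles. Dap, a death-associated protein that acts as a suppressor of autophagy, read 9.55, 9.32, 9.55, 9.10, 9.46 and 9.54 with Nup210 shRNA and averaged 10.88 ± 0.041 (SD, n = 6) in controls, from 10.81 to 10.94. The nearest arrays of the 2 groups were 1.3 apart, the widest gap of any gene named here. Dap thus stood at 36.3% of control (-1.46 ± 0.066, adjusted p = 3.39e-10). Tmem123, a transmembrane protein, read 10.29, 9.94, 10.26, 9.84, 10.08 and 10.29 against 10.99 to 11.11 in controls, or 52.3% of control (-0.93 ± 0.069, adjusted p = 2.13e-07). Here too every shRNA array was below every control. Gfpt1, the entry enzyme of the hexosamine pathway that supplies sugars for glycosylation, read 7.99, 8.12, 8.04, 7.90, 7.92 and 8.10 against 8.66 to 8.79, which is 61.2% of control (-0.71 ± 0.048, adjusted p = 9.39e-08). The other genes with such wide gaps were Tmem184c (-0.81), the endosomal tether Rabep1 (-0.66), the zinc transporter Slc30a4 (-0.63), Alg8, a glucosyltransferase of N-glycan assembly (-0.65), the carbonyl reductase Cbr2 (-0.78) and Hephl1, a copper-binding ferroxidase (-1.11). Without Nup210 shRNA arrays 2, 4 and 5 all 10 of these genes, Kpna3 included, were still called, with differences from -1.34 for Dap (adjusted p = 3.86e-10) to -0.57 for Slc30a4. Hephl1 shrank most in that fit, to -0.71 (adjusted p = 0.015).

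**Figure D2:**
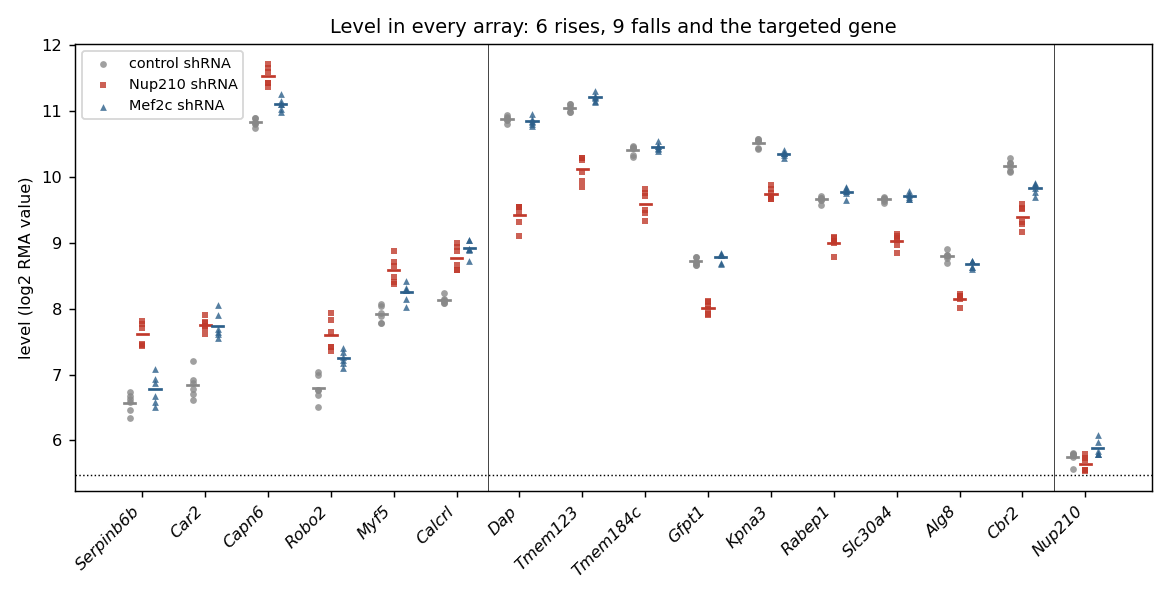
Level of 16 genes (log2 RMA value, vertical axis) in every array: control shRNA (grey circles), Nup210 shRNA (red squares) and Mef2c shRNA (blue triangles), with horizontal bars for group means and a dotted line at the background level of 5.47. The first 6 genes rose and the next 9 fell with Nup210 shRNA with no overlap with the controls, while the groups overlap at Nup210 itself.

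Most of the falls with the widest gaps were deeper with Nup210 than with Mef2c shRNA. Both shRNA groups were set against the same 6 controls, so their values are given side by side and the difference is taken from the direct contrast. Dap averaged 10.85 ± 0.063 (SD, n = 6) in the Mef2c shRNA arrays, so that the 2 shRNA groups differed by -1.43 ± 0.066 (limma adjusted p = 9.9e-11). Tmem123, Gfpt1, Rabep1, Slc30a4 and Tmem184c differed from control by 0.16, 0.06, 0.12, 0.06 and 0.05 with Mef2c shRNA, and in the direct contrast each was lower with Nup210 shRNA (adjusted p from 1.24e-08 to 1.3e-07). Hephl1 (-0.64, adjusted p = 0.0238), Cbr2 (-0.34, 0.00305) and Kpna3 (-0.16, 0.0262) fell with Mef2c shRNA as well. In the direct contrast Cbr2 and Kpna3 were lower with Nup210 shRNA (adjusted p = 0.000197 and 5.57e-08), whereas Hephl1 was not called (-0.47 ± 0.18, adjusted p = 0.0873). Of 68 falls whose groups lay over 0.25 apart, 60 were lower with Nup210 than with Mef2c shRNA, a call made for 6.93% of all genes tested. Of all 1133 falls 641 were. These genes were chosen on the same Nup210 shRNA arrays, so these shares are a description. Of the 11 rises with such a gap, 6 were higher with Nup210 than with Mef2c shRNA, which was called for 7.1% of genes tested.

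Rises with a wide gap included secreted factors, receptors and a myogenic factor. Serpinb6b, an intracellular protease inhibitor, read 7.47, 7.77, 7.45, 7.82, 7.71 and 7.44 against 6.34 to 6.73 in controls, a 2.06-fold rise (1.04 ± 0.10, adjusted p = 3.29e-06). No shRNA array came near the control range. Capn6, a calpain without protease activity, read 11.43, 11.66, 11.36, 11.60, 11.71 and 11.42 against 10.75 to 10.90 and rose 1.62-fold (adjusted p = 1.5e-06). Myf5, which specifies the muscle lineage in myoblasts, read 8.41, 8.88, 8.38, 8.65, 8.71 and 8.48 against 7.78 to 8.07 and rose 1.58-fold (0.66 ± 0.087, adjusted p = 9.48e-05). The highest Myf5 values were in arrays 2, 4 and 5, yet all 6 lay above the controls, and the call held without those 3 (adjusted p = 0.00506). Myod1 rose by 0.26 ± 0.051 with a narrow gap of 0.062 and was not called without the 3 arrays (adjusted p = 0.105). Myog, which drives terminal differentiation, stood at 12.15 to 12.32 with Nup210 shRNA and 12.12 to 12.31 in controls (0.01 ± 0.052, adjusted p = 0.959).

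Among the other large separated rises were Car2, a cytosolic carbonic anhydrase (1.88-fold), the Wnt modulator Sfrp4 (2.07-fold), Hpgd, which breaks down prostaglandins (1.98-fold), the guidance receptor Robo2 (1.76-fold), Hgf, the ligand of the Met receptor that activates satellite cells (1.57-fold), and Calcrl, the receptor for calcitonin gene-related peptide and adrenomedullin (1.56-fold). All of these calls held in each fit that left out 1 array, but Hgf was not called without arrays 2, 4 and 5 (adjusted p = 0.0881). Car2 was 0.89 above control with Mef2c shRNA, Hgf 0.74 and Calcrl 0.78, and the direct contrasts were not called (adjusted p = 0.956, 0.778 and 0.263). Sfrp4 (adjusted p = 0.000272), Serpinb6b (1.26e-05) and Capn6 (0.000104) were higher with Nup210 than with Mef2c shRNA. Mcpt1, a mast cell protease, had the largest rise, to 6.99 ± 0.58 (SD, n = 6) from 5.18 ± 0.22 (1.81 ± 0.20, adjusted p = 1.45e-05). Its controls lay below background, so the size of that rise is uncertain. Of 15 measured mast cell markers only Mcpt1 and Mcpt4 were called, Mcpt4 with both groups below background, and Kit, Fcer1a, Ms4a2, Cpa3, Tpsb2 and Cma1 averaged between 2.73 and 4.97 with Nup210 shRNA, all below background. Over the 15 markers the mean was 0.25 to 0.42 above the control mean in the 6 shRNA arrays and -0.10 to 0.08 in the controls. That mean includes the large rise of Mcpt1. The median difference of the 15 was 0.15, and 3 of them averaged above background.

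Some large differences had overlapping groups or changed their call with single arrays. Fam180a was called (-1.0 ± 0.24, adjusted p = 0.0117), but its shRNA arrays ran from 6.48 to 8.06 across controls of 7.44 to 8.58, and the call was lost without arrays 2, 4 and 5 (adjusted p = 0.154). Pappa, a protease that frees insulin-like growth factors from their binding proteins, overlapped the controls by only 0.02 and kept its call in that fit (0.76 ± 0.12, adjusted p = 0.000593, and 0.00886 without the 3 arrays). Casq1, which stores calcium inside the sarcoplasmic reticulum, read 9.59, 9.04, 9.96, 8.79, 9.14 and 9.34 with Nup210 shRNA. In controls it read 10.18, 10.10, 10.55, 9.83, 10.33 and 9.81, so each shRNA array lay below the control array of its own number. Nup210 shRNA array 3 still lay within the control range, and the fall of 0.82 on the log2 scale (adjusted p = 0.0238) no longer passed when Nup210 shRNA array 2 (0.0567), 4 (0.0618), 5 (0.0542) or control array 3 (0.0598) was dropped. Ly6g2 (-0.75, adjusted p = 0.153), Cilp (-0.71, 0.134), Aldh3b3 (-0.55, 0.0697), Actg2 (-0.54, 0.112) and Tspan32 (-0.53, 0.0946) were the largest differences that were not called. Ly6g2, Cilp and Aldh3b3 passed once Nup210 shRNA array 3 was left out (adjusted p = 0.0442, 0.0374 and 0.0394), Aldh3b3 also without control array 5 (0.0409), and Actg2 without Nup210 shRNA array 6 (0.0301). All 5 of these uncalled genes were called when the replicate number entered the fit as a block. At each of them every shRNA array lay below the control array of its own number. Whether the numbers pair samples is not known.

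Other gene groups are described next in the same way, beside the 4.64% higher and 8.52% lower among all genes above background. Genes both called and separated made up 2.66% (higher) and 5.69% (lower) of the same background. The fit without arrays 2, 4 and 5 called fewer genes of every kind: 153 rises and 410 falls over all 22180 genes, in place of 676 and 1133. Group counts from that fit are to be read beside this drop. The groups share some members, and their genes were listed with earlier results of these data known. The group with the largest share of falls was that of phosphocreatine and AMP metabolism, which buffers and senses ATP in muscle: 7 of 11 members fell and none rose, with a median of -0.35. They were the creatine kinases Ckm (-0.39) and Ckb (-0.54), the creatine-synthesis enzyme Gatm (-0.35), the AMP deaminases Ampd1 (-0.52) and Ampd3 (-0.26), and the AMP-activated kinase subunits Prkaa2 (-0.58) and Prkag3 (-0.48); Ckm, Gatm, Ampd3 and Prkag3 were chosen after their values were seen. Prkaa2, the catalytic subunit of muscle, read 7.92, 8.12, 8.13, 7.82, 8.04 and 8.02 against 8.48 to 8.73 in controls, at 67.1% of control (adjusted p = 1.5e-05). The groups did not overlap at 6 of the 7 genes. Gatm was the exception, and its call was kept in 4 of the 12 fits (adjusted p up to 0.0974, without Nup210 shRNA array 5). Of the list, 6 fell in the fit without arrays 2, 4 and 5. Relative to the control mean, the mean of the group was -0.28, -0.29, -0.30, -0.35, -0.49 and -0.21 in the 6 shRNA arrays and -0.04 to 0.05 in the controls. With Mef2c shRNA 2 members fell and 1 rose, beside 6.42% of all genes called lower and 4.34% called higher there. In the direct contrast 6 were lower with Nup210 than with Mef2c shRNA, Ampd1 among them (limma adjusted p = 1.24e-06).

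**Figure D3:**
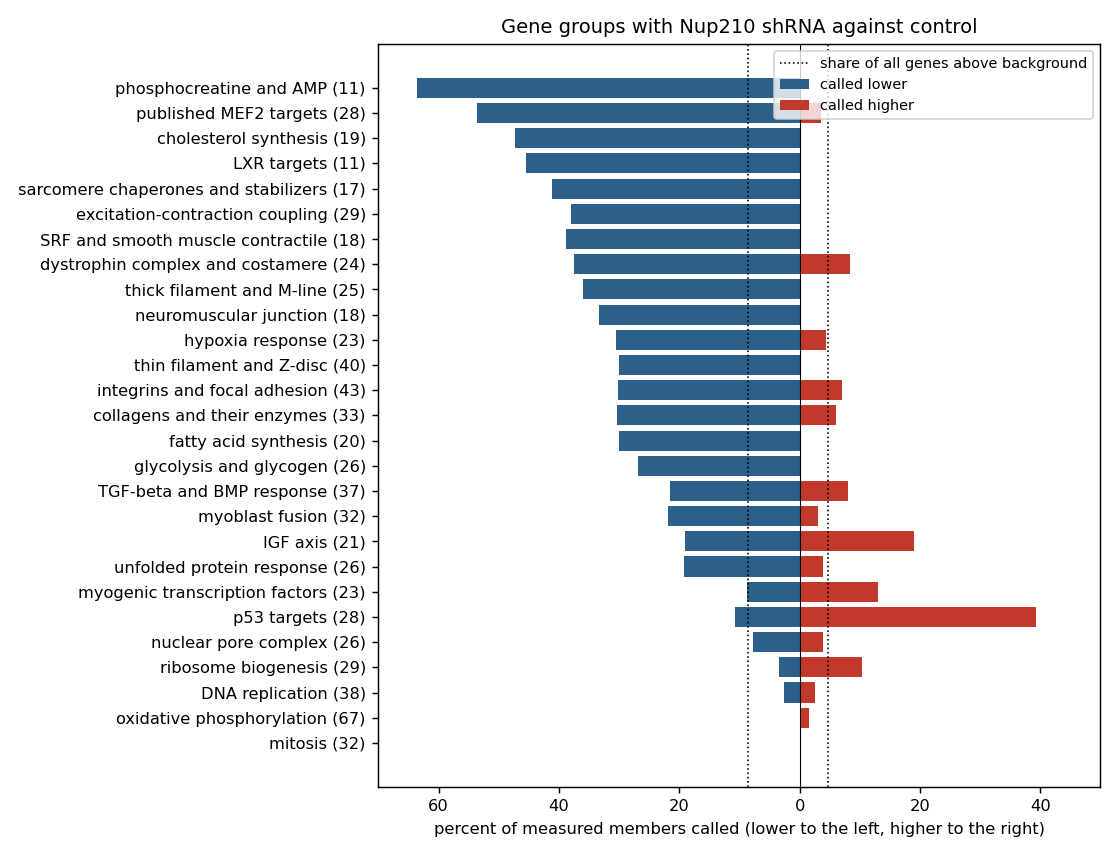
Percent of the measured members of 27 gene groups (number in brackets) called lower, to the left, or higher, to the right, with Nup210 shRNA. Dotted lines mark the 8.52% lower and 4.64% higher among all genes above background. Phosphocreatine and AMP genes, MEF2 targets and cholesterol genes reach furthest to the left and p53 targets furthest to the right, while no mitosis gene was called.

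Genes listed as MEF2 targets were lower. The list as written also held Bop1, a gene listed under ribosome biogenesis too. Of 28 measured, 15 fell and 1 rose, with a median of -0.24, and 11 of the falls were separated. Myom1, a sarcomere M-line protein, read 8.91, 8.69, 8.93, 8.75, 8.64 and 9.01 against 9.28 to 9.37 in controls, at 70.4% of control (-0.51 ± 0.055, adjusted p = 1.4e-05). The calcium-binding protein Hrc fell by 0.58 ± 0.087 (adjusted p = 0.000319), from a control mean of 8.83 ± 0.12 (SD, n = 6) to 8.25 ± 0.22. Jun, a component of the AP-1 factor, was the rise, at 9.99 to 10.32 against 9.44 to 9.84 (0.55 ± 0.065, adjusted p = 3.25e-05). Leaving out single arrays gave 10 to 14 falls, and 7 fell without arrays 2, 4 and 5. Mef2c itself did not pass (-0.09 ± 0.10, adjusted p = 0.722; exact permutation p = 0.422). In the Mef2c shRNA arrays, where Mef2c differed from controls by -2.48, 5 of the 28 fell, beside 6.42% of all genes called lower there. Hrc stood at 8.88 ± 0.10 there and Myom1 at 9.43 ± 0.039, and both were lower with Nup210 than with Mef2c shRNA (adjusted p = 5.54e-05 and 6.03e-07), as were 10 of the 28 in all, with 2 higher.

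Genes of excitation-contraction coupling, which release and take back calcium during contraction, fell in 11 of 29 cases, 9 of them separated, and none rose (median -0.17). Jph1, which ties the T-tubule to the calcium store, read 9.27 to 9.45 against 9.65 to 9.84 (-0.36 ± 0.053, adjusted p = 0.000238). The calcium pumps Atp2a1 (-0.28) and Atp2a2 (-0.29) and the voltage sensor Cacna1s (-0.25), all chosen after their values were seen, were separated as well. No member of this group was higher with Nup210 than with Mef2c shRNA and 15 were lower. Jph1 and Casq1 were not among the 15. Both fell with Mef2c shRNA as well (-0.27 and -0.95, limma adjusted p = 0.00193 and 0.00695). Their direct contrasts were not called (adjusted p = 0.339 and 0.802). Thick filament and M-line genes had 9 falls among 25. The slow myosin heavy chain Myh7 read 8.38 to 8.56 against 8.93 to 9.12 and was as low with Mef2c shRNA (8.51 ± 0.10, SD, n = 6; direct contrast adjusted p = 0.9). Thin filament and Z-disc genes had 12 falls among 40, led by the filament-capping protein Tmod1 at 67% of control (-0.58 ± 0.055, adjusted p = 3.17e-06). That count dropped to 7 without Nup210 shRNA array 5 or control array 4, and to 1 without arrays 2, 4 and 5. Chaperones and stabilizers of the sarcomere had 7 falls among 17, dystrophin complex and costamere genes 9 falls and 2 rises among 24, and genes of myoblast fusion 7 falls and 1 rise among 32. The rises were less firm: the dystrophin group kept both only when Nup210 shRNA array 4 or 6, or control array 5, was dropped, and the fusion group kept its 1 only with Nup210 shRNA array 2, 4 or 6, or control array 5, dropped. In the fusion group the membrane-repair protein Myof fell by 0.45 ± 0.040 (adjusted p = 1.55e-06). Capn3, a muscle calpain bound to titin, stood at 65.9% of control (-0.60 ± 0.094, adjusted p = 0.000454). Without arrays 2, 4 and 5, 5 calcium-handling, 5 thick filament, 3 chaperone, 2 dystrophin complex and 5 fusion genes fell. Glycolysis and glycogen genes had 7 falls among 26, Pgam2 (-0.46), Pygm (-0.41) and Gys1 (-0.33) in front, and 3 falls without those arrays. Oxidative phosphorylation genes had 1 rise, lost without Nup210 shRNA array 5 or control array 4, and no fall among 67, with a median of 0.04. At an unadjusted p under 0.05 in the limma fit, 13 were higher and 1 lower.

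Lipid genes fell in 3 related groups. Of 19 genes of cholesterol synthesis 9 fell and none rose, and all 19 differences were negative (median -0.23). Ebp, the sterol isomerase, read 10.01, 9.73, 10.01, 9.55, 9.51 and 9.99 against 10.35 to 10.51 in controls, at 64.8% of control (-0.63 ± 0.089, adjusted p = 0.000202). All its shRNA arrays were below the controls, with arrays 4 and 5 lowest. Dhcr7, which makes the last step to cholesterol, fell by 0.44 (adjusted p = 0.00915) and Insig1, which holds the sterol sensor in the endoplasmic reticulum, by 0.46 (adjusted p = 0.021). Insig1 missed the threshold without Nup210 shRNA array 5 (0.0524) or control array 6 (0.0509). The group rested heavily on 3 arrays. Its mean was -0.32, -0.34 and -0.43 in arrays 2, 4 and 5 but -0.15, -0.14 and -0.14 in arrays 1, 3 and 6, with controls from -0.09 to 0.07, and without the former arrays only 1 gene, Ebp, fell. With Mef2c shRNA 15 of the 19 fell, beside 6.42% of all genes called lower there. In the direct contrast 7 were higher and 3, Ebp and Dhcr7 among them, were lower with Nup210 shRNA.

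Targets of the sterol receptor LXR behaved more evenly: 5 of 11 fell, all separated, and 4 fell without arrays 2, 4 and 5. Pltp, which transfers phospholipids between lipoproteins, read 9.27, 9.03, 9.16, 8.99, 9.07 and 9.25 against 9.50 to 9.68 (-0.46 ± 0.053, adjusted p = 2.31e-05). Mylip, the ligase that marks the LDL receptor for breakdown, fell by 0.37 and the desaturase Scd1 by 0.42. With Mef2c shRNA, Pltp rose by 0.19 (adjusted p = 0.0234) and the difference of Mylip was 0.13 (0.108, not called). Both were lower with Nup210 than with Mef2c shRNA (adjusted p = 1.55e-07 and 2.25e-06). Of 20 genes of fatty acid synthesis 6 fell, Scd1, Mid1ip1 (-0.33) and Fads2 (-0.33) among them, and 2 fell without arrays 2, 4 and 5.

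Promoters were searched for 4 motifs on both strands, in 300 bases from 250 before to 50 after the gene start, as RefSeq gives them for mouse GRCm38.p6. Of 27025 genes with such a sequence, 41.1% held the CCAAT box (CCAAT), 1.44% the sterol regulatory element TCACNCCAC, 0.636% the MEF2 motif and 9.55% the p53 decamer. All 7 of the fallen cholesterol genes with a sequence held CCAAT, and so did all 8 of those not called, so the letters did not set the fallen genes apart. None of the 7 held the sterol element. Parts of 4 of these promoters are shown to let the spacing be seen, read 5′ to 3′ along the gene, with the CCAAT box in capitals (as ATTGG, on the opposite strand) and each stretch lying upstream of the start.
Ebp, chrX:8193543-8193587, minus strand: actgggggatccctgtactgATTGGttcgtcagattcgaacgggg
Dhcr7, chr7:143830145-143830189, plus strand: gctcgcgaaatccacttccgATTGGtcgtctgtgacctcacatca
Nsdhl, chrX:72918481-72918520, plus strand: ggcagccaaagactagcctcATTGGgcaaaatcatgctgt
Sc5d, chr9:42264301-42264344, minus strand: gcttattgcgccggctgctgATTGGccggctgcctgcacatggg
The box ended 50, 44, 15 and 19 bases before the start of Ebp, Dhcr7, Nsdhl and Sc5d.

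The MEF2 motif was absent from the 300-base windows of all 9 fallen MEF2 targets with a sequence. It was found in 11 of the 914 fallen genes with a sequence (1.2%) and in 2 of the 525 that rose (0.381%). Among tested genes above background the share was 0.588%. These counts are small and the difference was not tested. Fallen genes of the thick filament, thin filament, calcium and phosphocreatine groups were also looked up. The motif stood in 1 promoter each of the last 3 of these groups. These promoters are shown, with the motif in capitals, because they are the only matches among the fallen genes of those lists. Members of these lists that were not called were not looked up.
Synpo2l, chr14:20668434-20668483, minus strand: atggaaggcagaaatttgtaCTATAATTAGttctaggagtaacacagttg
Clcn1, chr6:42286614-42286663, plus strand: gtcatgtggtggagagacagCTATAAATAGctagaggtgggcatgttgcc
Ckb, chr12:111672339-111672387, minus strand: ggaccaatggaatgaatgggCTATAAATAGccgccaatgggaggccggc
The match ended 99 bases before the start in Synpo2l, a Z-disc protein gene, 41 in Clcn1, the muscle chloride channel gene, and 19 in Ckb, where CCAAT boxes flank it. In Clcn1 and Ckb the matched letters also hold a TATA box sequence, and a search by letters cannot tell these apart. Binding of a MEF2 factor was not tested. Synpo2l (-0.18) and Clcn1 (-0.27), chosen for the motif, fell with overlapping groups, and their calls were kept in only 3 and 2 of the 12 fits, with adjusted p up to 0.114 without Nup210 shRNA array 5 and 0.0921 without control array 4.

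Known p53 targets were the group in which rises outnumbered falls most. Of 28 measured, 11 rose, 6 of them separated, and 3 fell, with a median of 0.18. Psrc1, a spindle-associated protein, read 7.16, 7.38, 6.90, 7.29, 7.23 and 7.11 against 6.31 to 6.69 in controls (1.58-fold, adjusted p = 4.61e-05). Trp53inp1, a stress protein, rose by 0.55 and Zmat3, an RNA-binding protein, by 0.47. The group mean lay 0.08, 0.26, 0.06, 0.17, 0.20 and 0.13 above the control mean in the 6 shRNA arrays and at -0.06 to 0.04 in the controls. The lowest values were again those of arrays 1 and 3. Single arrays left out gave 10 to 13 rises. Without arrays 2, 4 and 5, 2 rose, while rises over all genes went from 676 to 153. Mdm2 (0.14, adjusted p = 0.0888) and Cdkn1a (0.08, adjusted p = 0.151), the best-known targets and chosen here for that, did not pass. The p53 decamer was present in 2 of the 8 risen targets with a promoter sequence. With Mef2c shRNA 7 of the 28 rose, beside 4.34% of all genes.

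**Figure D4:**
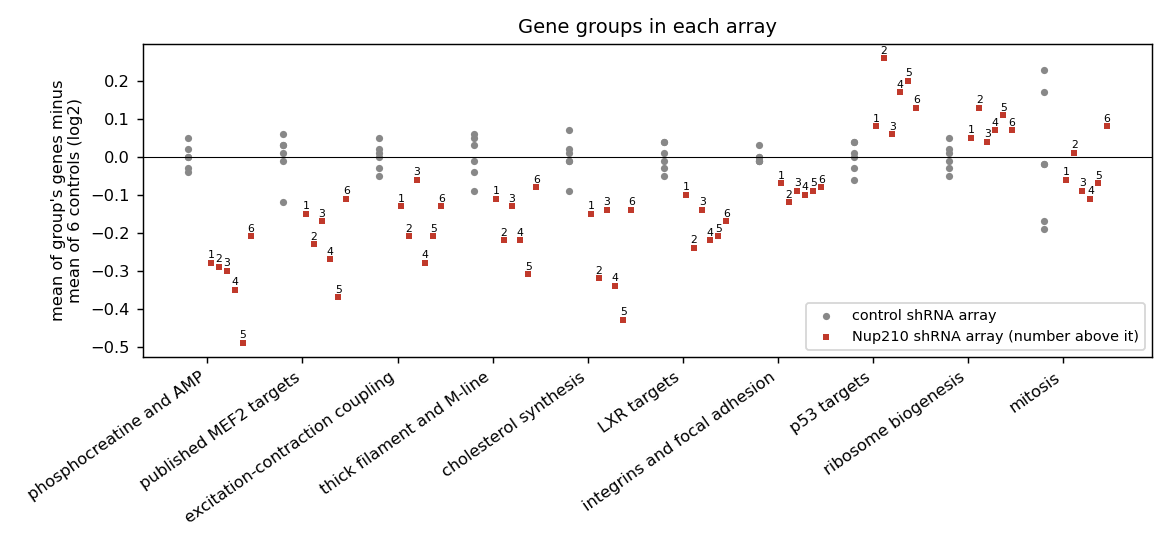
Mean of each group's genes minus the mean of the 6 controls (log2, vertical axis) in each control array (grey circles) and each Nup210 shRNA array (red squares, numbered). Phosphocreatine and AMP genes lie below all controls in every array, from -0.21 to -0.49, and cholesterol genes are furthest from the controls in arrays 2, 4 and 5. The mitosis group spreads more widely in the controls, from -0.19 to 0.23, than with Nup210 shRNA, from -0.11 to 0.08.

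Adhesion and collagen genes had more falls than rises. Of 43 integrin and focal adhesion genes 13 fell and 3 rose, and the group mean was -0.07 to -0.12 in the shRNA arrays against -0.01 to 0.03 in controls. Itga11, a collagen-binding integrin, fell to 64.5% of control (-0.63 ± 0.092, adjusted p = 0.000248) and the cytoskeletal linker Tns1 by 0.50. Only 1 of the rises was called without Nup210 shRNA array 5 or control array 1, 3, 4 or 6. Without arrays 2, 4 and 5, 4 fell and none rose. Of 33 collagen genes and collagen-processing enzymes 10 fell and 2 rose, and without those 3 arrays 1 fell and 2 rose. Their mean lay at -0.05, -0.14, -0.05, -0.08, -0.15 and -0.08 in the 6 shRNA arrays. Of 51 matrix glycoproteins and proteoglycans 11 fell and 5 rose, with a median of -0.02. Col3a1, the fibrillar collagen of soft tissue, rose against this trend, from 10.59 ± 0.069 to 10.97 ± 0.050 (SD, n = 6; adjusted p = 1.81e-05), as did the lysyl hydroxylase Plod2 (0.32). With Mef2c shRNA their differences from control, -0.10 and -0.11, were not called (adjusted p = 0.145 and 0.148), and both were higher with Nup210 than with Mef2c shRNA (adjusted p = 3.84e-07 and 4.07e-06). Targets of the serum response factor and smooth muscle genes had 7 falls among 18, with the light chain Myl9 at -0.61 and calponin Cnn1 at -0.55, both with overlapping groups. Without arrays 2, 4 and 5, 1 of these genes fell.

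Growth factor genes changed in both directions. Of 21 genes of the insulin-like growth factor axis 4 rose and 4 fell. The ligand Igf1 rose by 0.51. The receptor gene Igf2r rose from 9.30 ± 0.035 to 9.61 ± 0.067 (SD, n = 6, limma adjusted p = 8.99e-05). Pappa and Igfbp5 (0.29, chosen after its value was seen) were the other rises. The 4 rises were called in each fit that left out 1 array, whereas 2 to 3 of the falls were, 2 without Nup210 shRNA array 4 or control array 2, 3 or 6. Among 37 TGF-beta and BMP genes 3 rose and 8 fell: the ligand Bmp6 rose by 0.60 with a gap of 0.021 and Bmp4 fell by 0.49 with a gap of 0.0022, so both groups of arrays barely cleared each other. The platelet-derived growth factor gene Pdgfb fell by 0.66 on average, from 7.43 to 7.89 in controls to 6.63 to 7.31, with no overlap (adjusted p = 0.000465). Hypoxia-response genes had 7 falls, all separated, and 1 rise among 23, with the oxygen-sensing hydroxylase Egln3 at -0.34. In the unfolded protein response 5 of 26 fell and 1 rose, a rise not called once Nup210 shRNA array 4 or 5, or any of control arrays 2, 3 and 4, was dropped. The falls were led by the factor Xbp1 (-0.31 ± 0.043, adjusted p = 0.000142). In the fit without arrays 2, 4 and 5 there were 3 rises and no fall in the insulin-like growth factor axis, 4 falls and no rise among TGF-beta and BMP genes, 3 falls and 1 rise in the hypoxia response, and 3 falls and no rise in the unfolded protein response.

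Proliferation genes changed little with Nup210 shRNA and fell with Mef2c shRNA. No mitosis gene of 32 was called with Nup210 shRNA in the limma fit (median -0.05; 8.16% of all genes were called), 2 were lower at an unadjusted p under 0.05, and 1 was called without control array 3. DNA replication genes had 1 rise and 1 fall among 38. With Mef2c shRNA 29 mitosis genes (median -0.65) and 24 replication genes fell and none rose, beside 6.42% of all genes called lower there. In the direct contrast 29 of the 32 mitosis genes, 28 of the 38 replication genes and 22 of 29 ribosome biogenesis genes were higher with Nup210 than with Mef2c shRNA, and none was lower. The control arrays themselves ranged from -0.19 to 0.23 at the mitosis group. Macrophage, osteoblast, adipocyte and endothelial markers had no call in the limma fit in either direction. Many lay below background: 4 of 15 macrophage, 9 of 17 osteoblast and chondrocyte, 9 of 15 adipocyte and 4 of 13 endothelial markers averaged above it. For those below it, a lack of calls says little. When Nup210 shRNA array 1 or 6 was dropped, 1 adipocyte marker was called higher. At an unadjusted p under 0.05, 1 of 15 macrophage and 1 of 15 adipocyte markers were higher. Of 19 keratinocyte markers 2 fell, and 1 of 16 neuron markers fell, a call lost without Nup210 shRNA array 5 or control array 4 or 6.

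**Figure D5:**
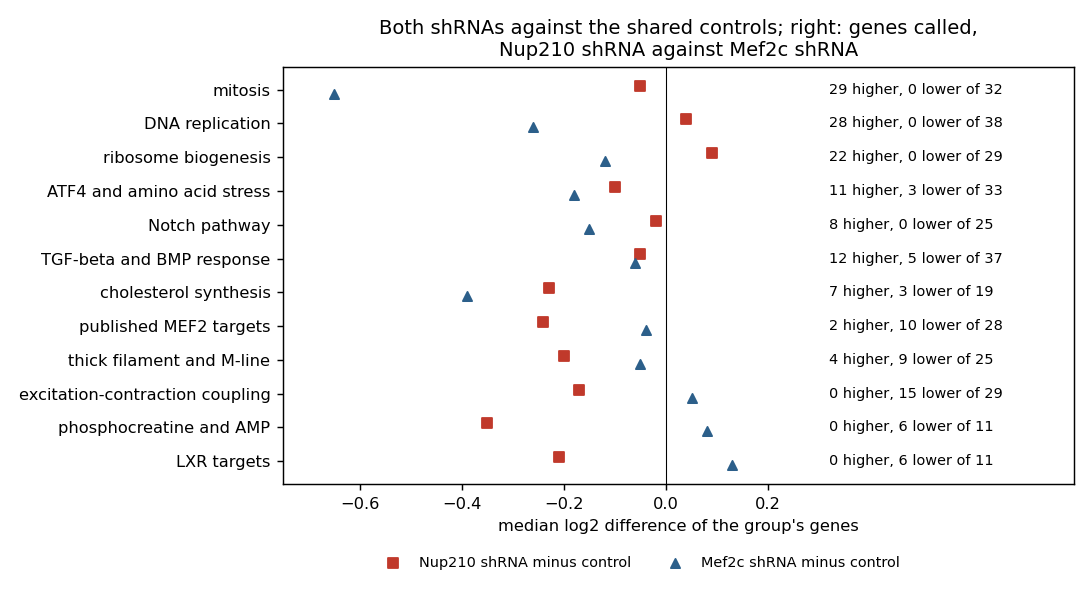
Median log2 difference from the shared controls (horizontal axis) of 12 gene groups with Nup210 shRNA (red squares) and Mef2c shRNA (blue triangles), and at the right the number of genes called higher or lower with Nup210 than with Mef2c shRNA. Mitosis genes stand at -0.05 and -0.65, while phosphocreatine, calcium-handling and LXR target genes were lower with Nup210 shRNA.

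Scaling moved the balance of calls. With each array centred on its median, which shifted all differences by -0.0203, 395 genes rose and 74.9% of called genes fell, in place of 62.6%; after a renewed quantile normalization 55.3% fell. The direction in which more members were called stayed the same under both for the phosphocreatine, MEF2 target, calcium-handling, filament, cholesterol, LXR, adhesion, collagen and p53 groups.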

How the data were processed

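RNA from 18 C2C12 samples was read on 1-colour arrays. The deposited log2 expression values had been made by the authors with RMA and Partek, per the submitters' processing notes. Their versions, and any scan batch, are not given here. RMA equalizes the value distribution of all arrays, so a shift shared by most genes cannot be seen. Of 41345 probe sets, 23521 carried 1 gene symbol. The brightest per symbol gave 22180 genes. With limma 3.58.1 in R 4.3.3, group means were fitted to all 18 arrays (lmFit, eBayes, 15 residual degrees of freedom) and p-values were adjusted by Benjamini-Hochberg over all genes, with calls at 0.05. Nup210, Mef2c and Trip6 were also compared by exact permutation tests. On simulated data of 22180 genes with 200 changed, 22%, 78.5% and 99% of changes of 0.25, 0.5 and 1 log2 units were recovered, with 4.35%, 3.09% and 4.81% of calls false.

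Genes were named by rule: Nup210, Mef2c, Trip6, Myod1 and Myog; the 15 largest changes and 10 widest gaps per direction among separated genes above background; the 5 largest per direction among overlapping calls and the 5 largest not called; and the 3 largest called in each of the gene groups with at least 3 called members. Of the genes so named, the most informative are described. Members, gene groups and motifs were chosen with earlier results of these data known, and other genes named were chosen after their values were seen. Alternatives were each array left out, median centring, renewed quantile normalization, mean of probe sets, dim genes left out, the 12 arrays alone, a trended robust prior, array weights, a replicate block, and stricter thresholds.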

Additional observations from a re-analysis of the deposited data

Results flagged for a closer look

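For the named genes, each group of 6 arrays was checked for a single array set apart, by Dixon's test of the gap to the nearest other array against the whole range. Of 386 group values, 15 were marked, and chance marks about 1 in 20. Among the targeted and pore genes, Nup210 stood at 5.57 in control array 6, with the next control at 5.75, and Seh1l at 9.92 in Nup210 shRNA array 5, with the next at 9.79. Low values were those of Mcpt1 in control array 1 (4.76, next 5.12), Pde2a in control array 5 (8.04, next 8.26), Rabep1 in Nup210 shRNA array 4 (8.79, next 8.99), Cpa4 in Nup210 shRNA array 1 (6.20, next 6.55), Popdc2 in Nup210 shRNA array 4 (6.68, next 6.98), Pdha1 in Nup210 shRNA array 2 (10.28, next 10.38), Bmp6 in control array 6 (6.51, next 6.89), Col8a1 in control array 5 (8.79, next 9.02) and Cdkn2d in Nup210 shRNA array 5 (7.40, next 7.65). High values were those of Pi15 in control array 5 (6.75, next 6.36), Sema3e in control array 5 (9.91, next 9.61), Col3a1 in control array 3 (10.73, next 10.58) and Mfap4 in Nup210 shRNA array 5 (6.94, next 6.51). Control array 5 held 4 of the 15 and Nup210 shRNA array 5 held 3.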

How the results depend on the processing

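Leaving out 1 array at a time gave 474 to 659 rises, 903 to 1111 falls, 328 to 441 separated rises and 705 to 849 separated falls. Against Mef2c shRNA it gave 1359 to 1531 higher and 1330 to 1512 lower genes, and for Nup210 -0.14 to -0.08 (limma adjusted p 0.229 to 0.573). An adjusted p under 0.01 left 269 rises, 635 falls and 226 separated rises, and 971 higher and 928 lower genes against Mef2c shRNA. A change of at least 1.2-fold left 276 rises, 637 falls, 153 separated rises and 458 separated falls, and 751 and 800 against Mef2c shRNA. Median centring gave 395 rises, 218 of them separated. The fit without Nup210 shRNA arrays 2, 4 and 5, chosen after seeing the data, called 153 rises and 410 falls, of which 150 and 407 were separated, and 995 genes lower than with Mef2c shRNA. That fit has 3 arrays fewer, and the cause of the rest of the drop was not tested. Mef2c turned to 0.08 there, and Myog, near 0 throughout, was -0.01 under median centring, in that fit and when Nup210 shRNA array 4 or control array 3 or 5 was dropped (-0.01 to 0.03 over single arrays left out). Of 184 named genes that were called, 146 kept the call in all 12 fits that left out 1 array. With the replicate number as a replicate block 811 genes rose and 1410 fell, 1742 and 1786 against Mef2c shRNA, and Nup210 stood at -0.10. Ly6g2, Cilp, Aldh3b3, Actg2 and Tspan32, not called without the block, passed with it (adjusted p = 0.00198, 0.00171, 0.00043, 0.000277 and 0.000473). Deviations of same-numbered arrays correlated at -0.18 to 0.17, and 3 of 6 Nup210 shRNA arrays correlated best with their own number. Some genes tracked the number: Ly6g2, chosen after its values were seen, was highest in array 3 and lowest in array 5 of each group. It read 7.10 and 5.15 there with Nup210 shRNA, 7.28 and 6.32 in controls, and 6.69 and 5.31 with Mef2c shRNA. The labels do not say whether the numbers pair samples, and these values do not settle it. The main fit left the numbers out. The other alternatives kept each of these counts within 1.5 times. In the simulation few changes as small as the typical call were recovered. It changed 200 genes and drew every value independently, whereas 1809 genes were called here, so recovery in these data may differ. A gene not called may still differ.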
